A study of Drosera capensis with 12 samples.

Results

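The Cape sundew (Drosera capensis) is a carnivorous plant whose leaf blades carry sticky tentacles and fold around captured prey. RNA of its leaf traps was sequenced in 4 groups of 3 libraries. GSH-closed traps had folded after glutathione (GSH) was put on the petiole at 100 mM, and GSH mock traps received no small molecule. Fly-closed traps had folded on living fruit flies fed to the leaf, and fly mock traps were left unstimulated. One label of the fly-closed samples names GSH as the agent, against their titles, and the titles were followed. The labels name no strain, age or time after the stimulus. Nor do they tell whether replicate libraries stand for different plants, so p-values measure the spread between these libraries, which may be technical. The feature IDs carry the prefix of Trinity, a program that assembles transcripts without a genome. The table does not pair them with gene names, so the trap identity was not checked against marker genes and no function is given to any feature.

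The subject here is the set of 281 features, of 397048 in the table, that were lower after GSH while their mean level after flies stayed near that of the fly mock. They were selected on the measured values of all 12 libraries. A level is given as TPM, the deposited value as its part of the library total, scaled so that each library adds up to 1000000. The GSH change was log2 of (mean GSH-closed + 1) over (mean GSH mock + 1), the fly change was formed in the same way, and each was centred on its median over the 30755 features above 0 in every library. Features were kept when the mean of the 6 mock libraries was from 10 to under 300 TPM, the GSH change was at most -1.2, the fly change lay from -0.4 to 0.4, and the highest GSH-closed TPM was below the lowest GSH mock TPM. The level condition left 12999 features, the fall left 578 of these, the separation of the libraries left 383, and the fly condition left 281. Since every library took part in the choice, the levels and changes of the 281 are given as a description. Where members were called by a test at an adjusted p, those calls are a description too.

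Glutathione is a small peptide with a thiol group that plant cells keep as a redox buffer, and in Arabidopsis it can open glutamate-receptor-like channels, which pass calcium into the cell. In sundews, captured prey sets off electrical signals and the hormone jasmonate, and enzymes that digest the prey are secreted later. Bulk RNA of a whole trap mixes all its cell types, so a lower level can come from fewer cells of a type or from less RNA per cell, and these cannot be told apart. TPM is a share of a library: where some transcripts take a larger share, the rest take a smaller one. The uncentred GSH change had a median of -0.34 over the 30755 features, against -0.02 for the uncentred fly change, and centring removed that shift from the changes. Levels in TPM, shares of TPM and percentages of a mock level are uncentred and keep it.

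The 281 features held 0.297% ± 0.00846 of all TPM in GSH-closed traps and 1.15% ± 0.0820 in GSH mock traps (SD, n = 3 each). They held 0.912% ± 0.0537 in fly-closed traps and 1.02% ± 0.0132 in fly mock traps (SD, n = 3 each). The shares of the GSH-closed libraries were 0.287%, 0.304% and 0.299%, against 1.18%, 1.06% and 1.22% in the GSH mock libraries. The shares of the fly-closed libraries were 0.856%, 0.918% and 0.963%, against 1.03%, 1.03% and 1.01% in the fly mock libraries. The GSH-closed libraries were thus lowest, and the fly-closed libraries all lay below the fly mock libraries by a smaller step. All features of the same level held 51.1%, 51.0% and 50.5% of TPM in GSH-closed traps and 54.6%, 50.3% and 54.7% in GSH mock traps; these ranges overlap, with GSH mock replicate 2 below all GSH-closed libraries.

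**Figure D1:**
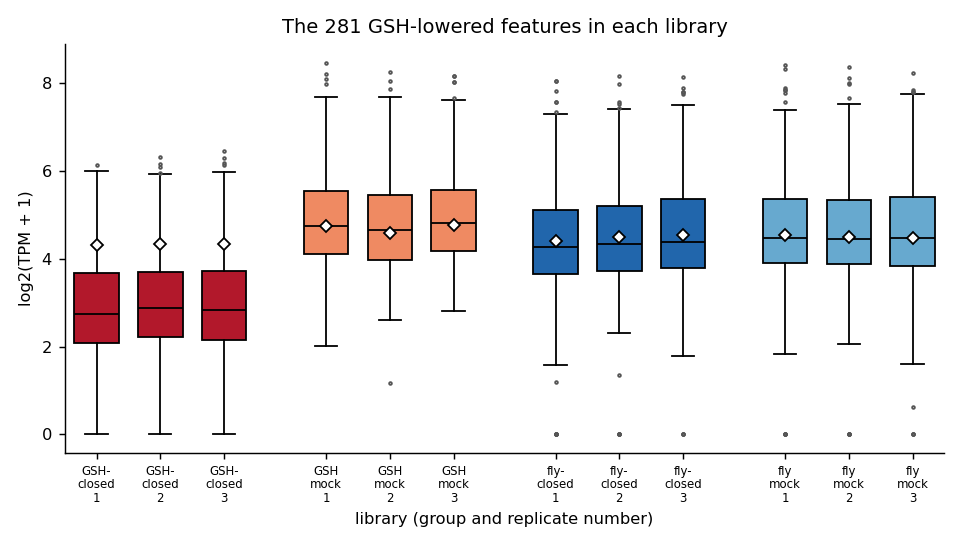
Box plots of log2(TPM + 1) of the 281 features in each of the 12 libraries (box from the lower to the upper quartile, line at the median, whiskers to the last value within 1.5 times the box length, dots beyond), with a white diamond at the median of all 12999 features of the same level. In the GSH-closed libraries the medians of the 281 lie between 5.69 and 6.35 TPM, far below the diamonds, while in the other libraries medians and diamonds lie close together.

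The typical feature of the set was expressed at about the level of 20 to 30 TPM in resting traps. The median of the 281 was 5.69, 6.35 and 6.14 TPM in the GSH-closed libraries and 25.8, 24.3 and 27.3 TPM in the GSH mock libraries. It was 18.2, 19.3 and 19.9 TPM in the fly-closed libraries and 21.1, 21.0 and 21.1 TPM in the fly mock libraries. In the 250 features with no GSH-closed library at 0, the mean GSH-closed level was 26.8% of the mean GSH mock level in the median feature, with a range from 7.74% to 33.8%. In the same features the mean fly-closed level was 88.2% of the fly mock level in the median feature, with a range from 73.6% to 132%. These percentages are uncentred, so they hold the median shifts of -0.34 after GSH and -0.02 after flies.

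Most of the falls lay near the limit of the rule. The centred GSH change had a median of -1.43, quartiles of -1.70 and -1.31 and a lowest value of -4.502. Of the 281, 162 lay above -1.5, 119 at or below -1.5, 36 at or below -2, 14 at or below -2.5 and 7 at or below -3. Just inside the limit lay features at -1.2004 and -1.2038, and just outside it features at -1.1988 and -1.1980 that met the other conditions. Within 0.1 of the limit lay 68 features inside and 83 outside, so the set is the tail of a continuous range. At the fly limits, the last features inside had fly changes of 0.39997 and -0.397, and the first GSH-lowered features outside had 0.409 and -0.411. At the level limits, the lowest mean mock level inside was 10.1 TPM and the next outside 9.91 TPM, while the highest inside was 294 TPM and the next outside 312 TPM.

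**Figure D2:**
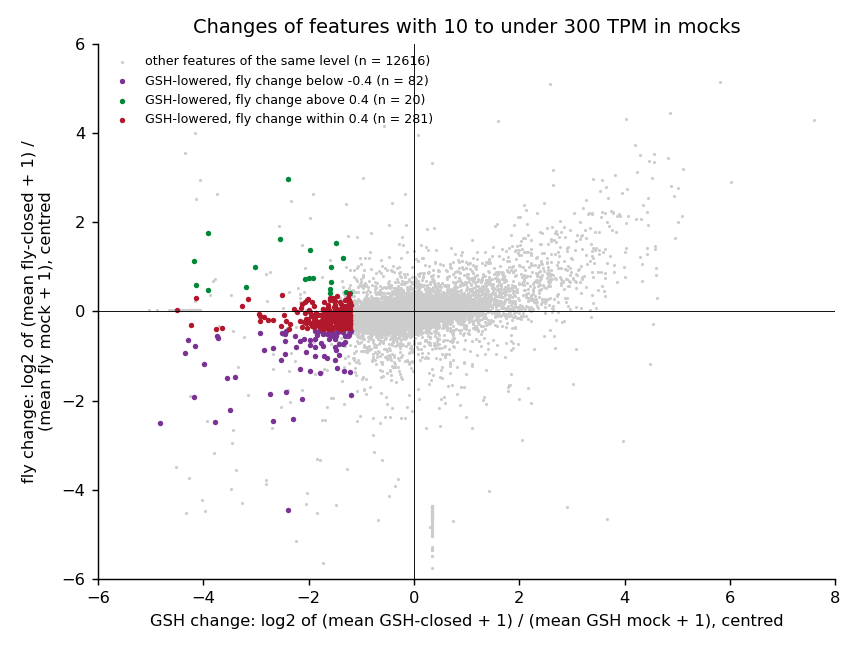
Centred GSH change (horizontal axis, log2) and centred fly change (vertical axis, log2) of the 12999 features with 10 to under 300 TPM in the mocks; each point is 1 feature. The 281 features form a flat band left of -1.2, next to 82 GSH-lowered features with a fly change below -0.4 and 20 with one above 0.4.

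The 281 spanned the whole range of levels. Of them, 115 had a mean mock level from 10 to under 20 TPM, 114 from 20 to under 50 TPM, 29 from 50 to under 100 TPM and 23 from 100 to under 300 TPM. These were 2.09%, 2.33%, 1.71% and 2.57% of all features in the same classes, so no class of level held a much larger share of them than another. The median GSH change was -1.48, -1.42, -1.39 and -1.46 in these classes from low to high level. The median fall was of similar size in scarce and in abundant features, and the most negative value, -4.502, was in the lowest class.

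The most abundant member by GSH mock mean was TRINITY_DN15252_c0_g1. It had 69.2, 79.3 and 87.1 TPM in the GSH-closed libraries and 296, 232 and 288 TPM in the GSH mock libraries. It had 263, 251 and 236 TPM in the fly-closed libraries and 342, 277 and 216 TPM in the fly mock libraries. All GSH-closed values lay below the other 9 libraries, and the fly groups overlapped. Its limma change, on the log2(TPM + 1) scale after scaling of the libraries, was -1.35 ± 0.14 (SE) after GSH and -0.12 ± 0.14 after flies.

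The second member by GSH mock mean was also lowest in the GSH-closed libraries. It had 49.2, 51.9 and 52.0 TPM in the GSH-closed libraries and 251, 305 and 258 TPM in the GSH mock libraries, with 263, 285 and 282 TPM in the fly-closed libraries and 321, 328 and 298 TPM in the fly mock libraries. Its GSH-closed mean was 18.8% of the GSH mock mean, and its fly-closed mean was 87.5% of the fly mock mean. The fly-closed libraries all lay below the fly mock libraries, by a far smaller step than the one after GSH. The third had 62.4, 70.8 and 53.8 TPM in the GSH-closed libraries and 274, 265 and 261 TPM in the GSH mock libraries. It had 162, 184 and 182 TPM in the fly-closed libraries and 228, 251 and 222 TPM in the fly mock libraries, a fly change of -0.39, close to the limit of the rule. In all 3 features every GSH-closed value lay below every value of the other groups.

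The largest fall belonged to TRINITY_DN5754_c1_g2. It was listed at 0 in all 3 GSH-closed libraries and had 24.6, 23.1 and 35.4 TPM in the GSH mock libraries. It was also listed at 0 in all 6 libraries of the fly experiment, so its fly change of 0.02 comes from centring alone and says nothing on a response to flies. It was the only 1 of the 281 listed at 0 throughout that experiment. Its sister feature (another feature of its assembly component) was listed at 0 in the 3 GSH mock libraries and had 9.67, 3.67 and 2.24 TPM in the GSH-closed libraries.

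Other large falls rested on uneven libraries. The second largest belonged to a feature listed at 0, 8.80 and 0 TPM in the GSH-closed libraries, against 52.6, 89.0 and 134 TPM in the GSH mock libraries. It had 42.8, 12.2 and 36.9 TPM in the fly-closed libraries and 30.2, 11.3 and 73.6 TPM in the fly mock libraries, and its fly change of -0.30 stands on values that differ several-fold within each group. The limma interval of that change ran from -2.32 to 2.08 (95%, log2). By contrast, the seventh largest fall was seen in a feature at 0 in all GSH-closed libraries and at 11.2, 8.16 and 11.5 TPM in the GSH mock libraries, with 19.4, 20.8 and 11.6 TPM in the fly-closed libraries and 12.9, 19.2 and 11.0 TPM in the fly mock libraries. In all, 6 of the 281 were listed at 0 in all 3 GSH-closed libraries and 31 in at least 1, while none was at 0 in any GSH mock library. Of the 31, 21 were in the lowest class of level.

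Several members were nearly level across the 9 libraries without GSH, which was not a condition of the rule. In 141 of the 281 (50.2%) the highest of these 9 libraries was at most 2-fold above the lowest, a span met by 67.4% of all features of the same level, so the set was less even than its class. The steadiest, picked after its values were seen, had 19.7, 20.7 and 18.6 TPM in the GSH-closed libraries and 57.4, 65.0 and 61.7 TPM in the GSH mock libraries. It had 58.1, 62.6 and 62.4 TPM in the fly-closed libraries and 58.3, 58.4 and 55.1 TPM in the fly mock libraries. Its 9 libraries without GSH thus spanned 1.18-fold, and the GSH-closed mean was 32.1% of the GSH mock mean. Among the 141, the largest fall was in a feature with 1.62, 2.12 and 2.56 TPM in the GSH-closed libraries and 25.4, 24.5 and 27.1 TPM in the GSH mock libraries, also picked after its values were seen. It had 18.0, 19.2 and 15.5 TPM in the fly-closed libraries and 22.7, 22.3 and 16.7 TPM in the fly mock libraries, and its GSH-closed mean was 8.18% of the GSH mock mean.

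**Figure D3:**
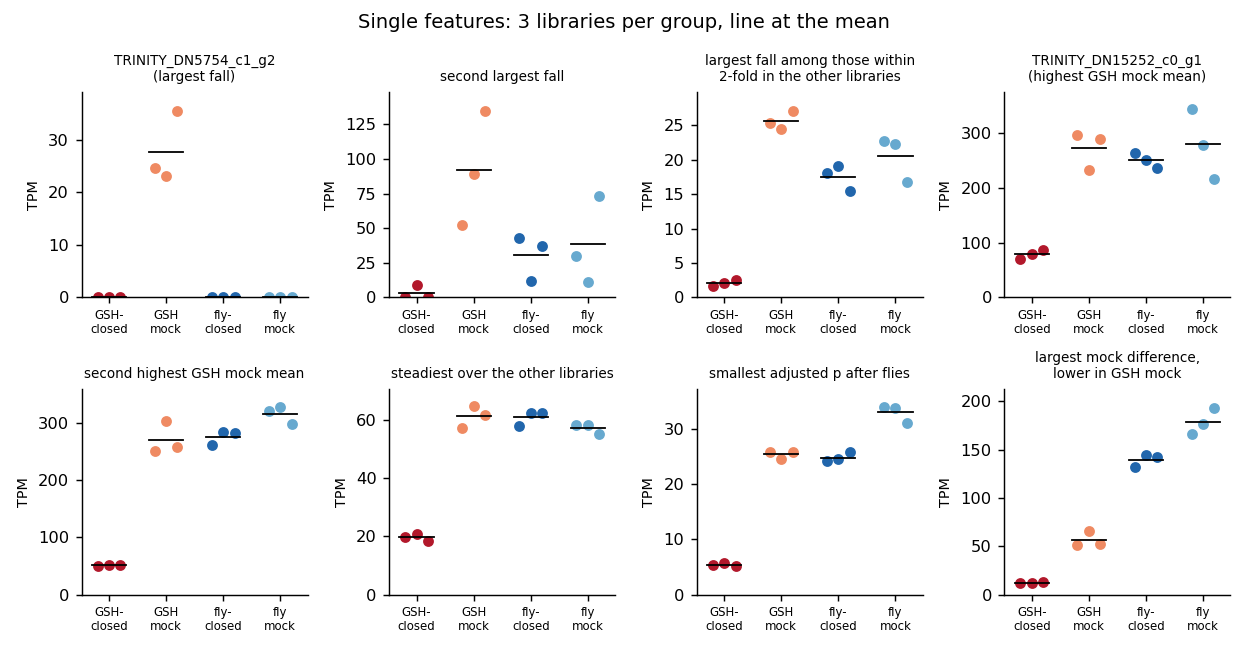
TPM of 8 of the 281 features in the 3 libraries of each group (points) with the group mean (line); every vertical axis starts at 0. The GSH-closed points lie lowest, or level with the fly libraries at 0 in the case of TRINITY_DN5754_c1_g2, and the second largest fall shows the widest scatter of its other libraries.

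The rule fixed the separation from the GSH mock; the separation from the fly experiment was no condition of its own, but follows in part from the level and fly conditions. All GSH-closed libraries lay below the other 9 in 241 of the 281 (85.8%), against 37.5% of all features of the same level. In that class all GSH-closed libraries lay below all GSH mock libraries in 59.1% of features. Of the 281, all GSH-closed libraries lay below all fly-closed libraries in 245 and below all fly mock libraries in 251. The mean GSH-closed level ranged from 8.66% to 120% of the mean fly-closed level in the 250 features with no GSH-closed 0, with a median of 32.2%.

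A linear model across all features (limma, on log2(TPM + 1)) called 251 of the 281 lower in GSH-closed than in GSH mock traps at an adjusted p below 0.05. Of all 46309 features tested, 10.9% were called lower and 14.4% higher, and 24.2% of those with 10 to under 300 TPM were called lower. With no scaling between libraries the split over all features was 4705 higher and 11763 lower, in place of 6675 higher and 5051 lower. Nothing is read from the members' count, since the rule used this contrast. The 30 that were not called had a median SE of 0.89 on the log2 scale, against 0.14 for the 251 called, with similar mock levels (medians of 21.7 and 24.1 TPM).

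After flies the set was not wholly still. The fly change was below 0 in 219 of the 281 (77.9%) and above 0 in 62, with a median of -0.14; of all 11130 features of the same level and fly window, 60.1% were below 0 and the median was -0.04. All fly-closed libraries lay below all fly mock libraries in 80 of the 281 (28.5%), against 15.8% of features of the same level, and above them in 2, against 9.54%. Both background shares cover features of any fly change, while the members were held to the fly window, so they are not a matched background. The rule used the means of this contrast, so these counts and the limma calls after flies are a description. Fly-closed replicate 1 was the lowest of its group in 169 of the 281, replicate 2 in 66 and replicate 3 in 50, ties counted in each. The members' median limma fly change was -0.160 with all libraries, and -0.145, -0.147 and -0.174 without fly-closed replicates 1, 2 and 3. As a share of the TPM of all features of the same level, the 281 held 2.02%, 2.01% and 2.04% in fly-closed replicates 1, 2 and 3. In fly mock replicates 1, 2 and 3 that share was 2.22%, 2.27% and 2.24%. Beyond these values, the part of fly-closed replicate 1 in the lower fly-closed means was not tested. Its members' median was also the lowest of the fly-closed libraries, at 18.2 TPM, as was the median of all features of the same level, at 20.1 TPM against 21.6 and 22.3 TPM in the other two.

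Limma called 11 of the 281 lower after flies and none higher, where 0.777% of all features tested were called lower and 4.73% higher, and 1.64% of those of the same level were called lower. Their limma changes lay between -0.40 and -0.24, so a call could be had at a change inside the window of the rule. The clearest of the 11, picked after its values were seen, had 24.1, 24.6 and 25.8 TPM in the fly-closed libraries and 34.0, 33.9 and 31.2 TPM in the fly mock libraries, with no overlap. In the GSH experiment it had 5.32, 5.75 and 5.20 TPM in the closed and 25.8, 24.6 and 25.9 TPM in the mock libraries. The set is therefore described by its rule, a large fall after GSH with a fly change of at most 0.4 in size, and not as unmoved by flies. The 11 became 18 without GSH-closed replicate 3 and 17 without GSH mock replicate 2. They became 1, 1 and 3 without fly-closed replicates 1, 2 and 3, and 6, 2 and 2 without fly mock replicates 1, 2 and 3. Over all features, the 360 called lower after flies became 151, 186 and 196 without fly-closed replicates 1, 2 and 3, and 155 and 200 without fly mock replicates 2 and 3. With the replicate number as a block, 6 were called.

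A fly change near 0 was also known with very unequal precision. The 95% limma interval of the fly change lay wholly between -1 and 1 on the log2 scale, meaning within 2-fold, in 222 of the 281. These include TRINITY_DN5754_c1_g2, whose interval rests on 6 values of 0 and says nothing on its response to flies. In the other 59 it reached 2-fold or more: it reached -1 in 51 and 1 in 44, with 36 reaching both. The half-width of the interval was 0.34 in the median feature and ranged from 0.12 to 4.10. On the scale of limma, which averages logs, the fly change lay beyond 0.4 in size in 23 of the 281. For the 59, these libraries cannot show whether the level after flies was within 2-fold of the mock.

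**Figure D4:**
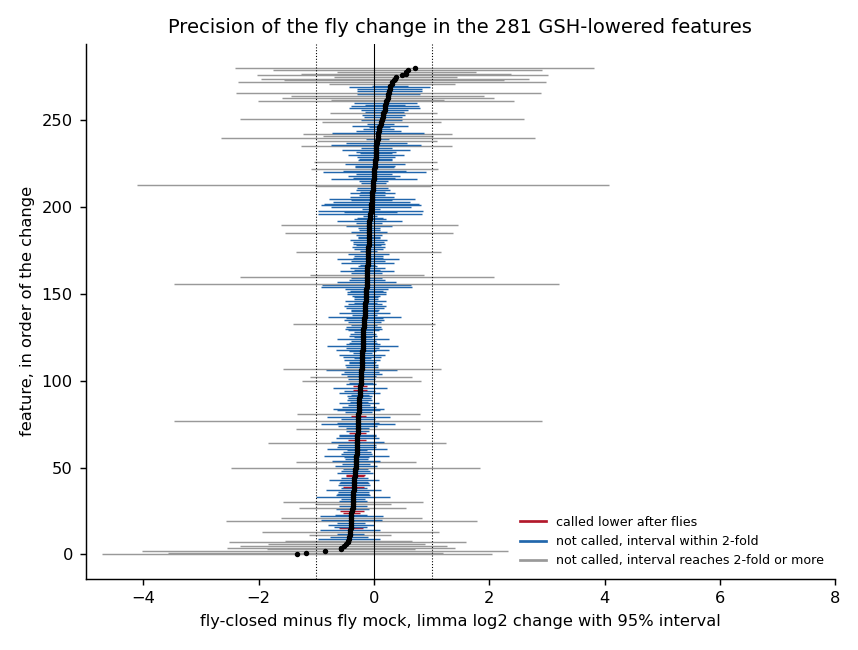
Limma log2 change of fly-closed against fly mock traps with its 95% interval for each of the 281 features, in order of the change. Of these, 222 intervals stay within 2-fold (between the dotted lines, TRINITY_DN5754_c1_g2 with its 6 values of 0 included), 59 reach 2-fold or more, and 11 features are called lower.

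The difference between the GSH effect and the fly effect was called below 0 in 216 of the 281 by limma, where 5.82% of all features tested and 10.7% of those of the same level were called so. The rule used both effects, and nothing is read from that count. The background share depended on the fly-closed libraries: 2694 features were called below 0 with all libraries, and 1616, 1506 and 1496 without fly-closed replicates 1, 2 and 3.

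The mock groups of the 2 experiments were compared because the rule sets each closed group against its own mock. In the members the limma difference, GSH mock minus fly mock, had a median of 0.02 and lay within 0.5 of 0 in 188 of the 281. It was 1 or more in 21 features and -1 or less in 5. Limma called 35 higher in the GSH mock (12.5%), against 5.53% of all features tested and 15.0% of those of the same level. It called 27 lower (9.61%), against 3.71% of all features and 8.78% of those of the same level. The GSH mock values entered the rule, so this is a description. Without fly mock replicate 1 the count called higher was 22, and the count called lower was 16, 16 and 15 without GSH mock replicates 1 and 3 and fly mock replicate 2. Over all features, 2563 were called higher and 1719 lower in the GSH mock, and 4080 and 1159 with no scaling between libraries.

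A few members had very different resting levels in the experiments. The feature with the largest difference towards the fly mock, picked after its values were seen, had 11.5, 11.8 and 12.9 TPM in GSH-closed and 51.6, 65.8 and 52.4 TPM in GSH mock libraries. It had 132, 144 and 142 TPM in fly-closed and 167, 177 and 193 TPM in fly mock libraries. All 4 groups were apart from each other in this feature. Its GSH-closed mean was 21.4% of the GSH mock mean, and its fly-closed mean was 78.0% of the fly mock mean.

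The libraries of a group scattered somewhat more in the members than in their class. The SD of log2(TPM + 1) between the 3 libraries had a median of 0.19 in GSH-closed traps over the 281, against 0.11 over all features of the same level. Level here means the mock level. In GSH-closed traps the mean TPM had a median of 6.09 in the members and 19.1 in the class, so these SDs were not compared at equal levels. In the GSH mock the median SDs were 0.21 and 0.16. In fly-closed traps they were 0.16 and 0.12, and in the fly mock 0.14 and 0.11. GSH mock replicate 2 was the lowest of its group in 154 of the 281, against 74 and 53 for replicates 1 and 3, while the GSH-closed libraries shared the lowest place more evenly, with 106, 81 and 117.

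Set beside their nearest neighbours, the 281 were the middle part of the 383 GSH-lowered features of the level. A fly change within 0.4 was found in 73.4% of the 383, in 85.6% of all 12999 features of the level, and in 42.0% of the 852 features that were higher after GSH by the mirror image of the same rule. The 82 features with a fly change below -0.4 had a median GSH change of -1.82, and the 20 with one above 0.4 had one of -1.98, against -1.43 in the 281. Both neighbouring sets scattered more within groups, with median SDs in fly-closed traps of 0.69 and 0.74 against 0.16 in the 281. The fly change divides these sets and was formed from the same fly libraries, so this scatter is not independent of the division. The GSH changes of the sets were not tested against each other. In the 20 the mock levels differed: the median of the mean GSH mock level was 21.5 TPM and that of the fly mock 8.43 TPM, against 25.1 and 21.0 TPM in the 281. Both mocks entered the conditions that set the 20 apart, so this difference follows in part from the choice.

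The loss of transcript share was spread over many features. The 281 together held 8577 TPM less in GSH-closed than in GSH mock traps, taken as the sum of differences of means. This was 2.92% of the TPM lost by all features with a lower mean, and 5.66% of that lost within the same level. The 10 members with the largest losses made up 18.2% of it, and 51 were needed to reach 50% of it.

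The assembly groups features that may come from 1 gene or from close relatives into components, and features of a component are called sisters here. The 281 belonged to 276 components, of which 5 held 2 members and the rest 1. Of the 281, 190 (67.6%) had no other tested feature in their component, against 75.5% of all features of the same level, and 91 did. In the pairs, both members were lower after GSH, which the rule required of every member. One pair had GSH changes of -1.51 and -1.29, with means of 38.6 and 49.4 TPM in GSH-closed and 142 and 155 TPM in GSH mock traps. Its fly-closed means were 114 and 136 TPM and its fly mock means 119 and 145 TPM. Another pair, with means of 11.2 and 11.1 TPM in GSH mock traps, had changes of -3.26 and -2.93. Paired members may share reads and are not separate evidence.

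TPM was also summed over whole components, which can differ from the feature's own values where it has a sister. Among the 91 with a tested sister, 39 had a component sum with a centred GSH change of at most -1.2 and separated libraries, 47 had a centred change between -1.2 and 0, and 5 had one above 0. The median GSH change of these 91 was -1.41 for the feature and -1.15 for its component.

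Among the sisters that were not members, more were called lower than higher after GSH. Of 110 tested sisters, 36 (32.7%) fell after GSH by limma at an adjusted p below 0.05 and 13 (11.8%) rose, against 10.9% and 14.4% of all features tested. Of the features with 10 to under 300 TPM, 24.2% were called lower, a share nearer to that of the sisters. The sisters were not limited to that level, so neither share is a matched background. Their median limma change was -0.29 after GSH and -0.07 after flies. Sisters can share reads with members, so they are not independent of the rule. Of the 91 members with tested sisters, 31 had a sister that fell and none that rose, 13 had one that rose, 41 had none called, and 6 had a sister only among the members.

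In a small group of components the sisters went opposite ways. The sister TRINITY_DN313_c0_g2 had 51.1, 50.1 and 42.8 TPM in GSH-closed and 3.84, 2.50 and 3.25 TPM in GSH mock libraries, a limma change of 3.94 (adjusted p = 4.64e-09). The member of the component had 1.90, 2.56 and 2.21 TPM in GSH-closed and 11.9, 11.7 and 11.5 TPM in GSH mock libraries. After flies the sister rose too, with 10.7, 10.6 and 13.2 TPM in fly-closed and 2.45, 1.88 and 1.97 TPM in fly mock libraries (limma change 2.00, adjusted p = 3.43e-06). The member had 7.76, 9.36 and 10.1 TPM in fly-closed and 13.4, 10.8 and 10.7 TPM in fly mock libraries. The component as a whole was higher after GSH, with a centred change of 2.03.

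TRINITY_DN1810_c0_g2 is the sister of the member with the clearest call after flies. It had 72.3, 84.1 and 96.0 TPM in GSH-closed and 13.2, 19.5 and 18.1 TPM in GSH mock libraries, a limma change of 2.67 (adjusted p = 3.88e-06). It had 11.8, 8.70 and 15.0 TPM in fly-closed and 7.83, 6.70 and 8.89 TPM in fly mock libraries, which did not pass the test (limma change 0.53, adjusted p = 0.262). The sister was thus below the member in both mocks and far above it after GSH. These 2 sisters were picked after their values were seen, from the 2 components whose sums were highest after GSH relative to the mock. Of the 13 sisters that rose after GSH, 5 did so by 1 or more on the log2 scale and 3 also rose after flies. Whether reads were divided differently between sisters was not tested.

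**Figure D5:**
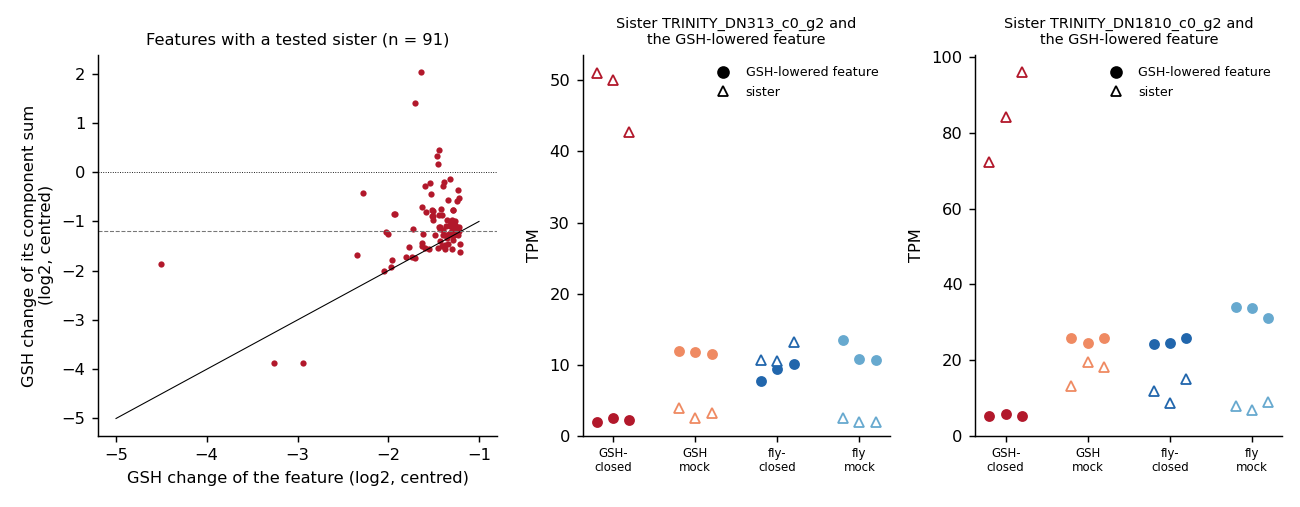
Left, GSH change of the 91 features with a tested sister (horizontal axis, log2) against that of their component sum (vertical axis, log2), with the line of equality, the rule's limit (dashed) and 0 (dotted). Middle and right, TPM per library of 2 GSH-lowered features (filled circles) and their sisters (open triangles), where the sister is the higher of the pair in the GSH-closed libraries only for TRINITY_DN1810_c0_g2 and in both closed groups for TRINITY_DN313_c0_g2.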

How the data were processed

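The table holds 12 libraries in 4 groups, read from the sample titles. Its deposited values are a rescaled signal, not raw reads: wherever a value lay above 0 and below 60, it equalled, within 0.0051, a whole number of steps, a step being the library sum over 1e+08 (100% of such values in every library). At most 2.25% were whole numbers within 0.005. Tools named in the submitters' processing notes are RSEM, Trimmomatic, cutadapt and DESeq2 (version 1.16.1), without their roles. Sums per library ran from 17708300 to 20453100. Sequencing depth and any correction for length were not stated.

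Mean mock level means all 6 mock libraries. For limma (version 3.58.1, R version 4.3.3), features with 0.5 TPM or more in at least 3 libraries entered. Library scaling came from log ratios averaged after trimming 30% by ratio and 5% by abundance at each end. On log2(TPM + 1), 1 model of 4 groups was fitted with trended, robust moderation, and calls had a Benjamini-Hochberg adjusted p below 0.05. The code was tested on simulated data. Of the members, the one with the largest fall and the one with the highest GSH mock mean are printed by ID, with 2 sisters. Members, limits and rules were chosen with earlier results of these data known. Alternatives covered scaling, pseudocount, filter, limits, a replicate block and leaving out each library; judging separation on scaled TPM was added after seeing the data.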

Additional observations from a re-analysis of the deposited data

Results flagged for a closer look

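The effects of GSH and of flies differed by the test of the difference for both members printed by ID, and this is what brought them up for a closer look. The difference, GSH effect minus fly effect, was -4.64 on the log2 scale by limma for TRINITY_DN5754_c1_g2, which was listed at 0 in every library of the fly experiment, so that its fly effect has no content; with a pseudocount of 0.1 the difference was -7.91. It was -1.22 for TRINITY_DN15252_c0_g1, whose fly effect was -0.12 ± 0.14 (SE). Over the set, 216 of 281 had a GSH effect below the fly effect by the same test. The rule that chose the 281 used both effects, so these values describe the choice.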

How the results depend on the processing

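The membership depended most on centring and on the limits. Without centring 702 features met the rule, 271 of them among the 281; with a fly change within 0.2 there were 153, and with a GSH change of at most -1.5 there were 119. Scaling by the trimmed mean gave 213 members (212 shared), a pseudocount of 0.1 gave 266 (250 shared), the level taken from the GSH mock 298 (274 shared), the level required in each mock 251, and separation judged on scaled TPM 270. Leaving out 1 library gave 261 to 342 members.

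With no scaling, the median limma change of the members was -1.79 after GSH, -1.66 for the difference of effects and 0.16 for GSH mock minus fly mock, against medians of -1.41, -1.27 and 0.02; all tested features called lower were then 11763 after GSH and 7903 for the difference, and in the mocks 4080 were higher in the GSH mock, while 17 members were lower there. With a pseudocount of 0.1 the member medians were -1.56 after GSH and -1.38 for the difference. With no filter on low values, all features called lower were 3278 after GSH, 84 after flies and 1013 for the difference, with 1452 higher and 866 lower in the GSH mock; of the members, 1 was lower after flies, and 23 were higher and 13 lower in the GSH mock.

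With the replicate number as a block, 6 members were called lower after flies in place of 11, and other counts stayed within 1.5 times. Same-numbered libraries did not deviate together (correlations from -0.00638 to 0.00925), so no pairing by replicate number was seen. The sample codes carry other numbers, and a pairing by them was not tested. Leaving out each library in turn gave 235 to 250 members lower after GSH, 1 to 18 lower after flies, 200 to 212 below 0 for the difference, and 22 to 35 higher and 15 to 32 lower in the GSH mock; over all features it gave 4047 to 5062 lower after GSH, 151 to 480 lower after flies and 1496 to 2662 below 0 for the difference. Where the cause of a shift is not given by the setting itself, it was not tested. TRINITY_DN15252_c0_g1 kept its call after GSH in 17 of 17 settings (-1.78 to -1.29). TRINITY_DN5754_c1_g2 kept it in 14 of 14 (-7.91 to -4.63), and without any 1 GSH mock library it failed the filter. The rule chose both features on this same contrast, so nothing is read from how often the calls were kept. Read depth is unknown, so values at 0 have no detection limit. The number of features above 0 differed between the experiments. It was 59804 to 63088 in the libraries of the GSH experiment, 74756 to 76559 in fly mock and 76461 to 86499 in fly-closed libraries.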
